A study of Homo sapiens with 6 samples.

Results

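The human mitochondrial genome encodes 37 transcripts, and all 37 have a row in the authors' normalized count table, where their symbols start with MT-. These 37 of 60669 rows were taken by symbol alone, with no use of their values: 13 protein genes, 2 ribosomal RNAs (rRNAs) and 22 transfer RNAs (tRNAs). The cells were LX-2, an established human line of hepatic stellate origin. Stellate cells make the scar matrix of an injured liver once activated. LX-2 cells were transfected with an siRNA directed at ADAMTS12 (siADAMTS12) or with a negative control siRNA (siCTL), and RNA was collected at 48 h. ADAMTS12 codes for a secreted metalloprotease that cleaves matrix proteins. There were 3 libraries of siADAMTS12 cells and 3 of siCTL cells, numbered 1 to 3 in each group. The labels give both groups as wild type and name 1 siRNA per group, so a change cannot be assigned to the loss of ADAMTS12 rather than to the siRNA itself. Whether the 3 libraries of a group stem from different cultures is not stated. The p-values thus reflect variation among libraries, some of which may be technical.

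Mitochondrial DNA is a small circle that is transcribed from both strands into long precursors. Most rRNA and messenger RNA (mRNA) sequences are separated by tRNA genes, and excision of the tRNAs frees the RNAs between them. Most mitochondrial mRNAs then receive a short poly(A) tail, MT-ND6 being the known exception, and their abundance depends strongly on processing and on the LRPPRC-SLIRP complex, which protects them from decay. The 13 mRNAs encode core subunits of the respiratory chain and ATP synthase, and the rRNAs and tRNAs serve their translation inside the organelle. The libraries here were made with a stranded kit that selects poly(A) RNA. Rows of rRNAs, tRNAs and MT-ND6 therefore count the molecules that passed that selection, not their whole pool.

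The siRNA's sense strand, given in the labels, is shown with capitals at the 7 bases that pair with guide positions 2 to 8, the seed through which an siRNA can also silence transcripts other than its target.
siADAMTS12 sense strand: gccaaaguuugGAGGGAAa
The 7 bases GAGGGAA occurred in 0 of the 37 mitochondrial transcripts (GENCODE 29, GRCh38, sense strand). The shorter AGGGAA, which lies within it, occurred in 2 of them, MT-RNR2 and MT-CO1. Among the first 956 bases of 1 transcript for each of 18221 nuclear protein-coding genes, a window as long as MT-ND1, 9.86% held GAGGGAA and 29.7% held AGGGAA. The longest run that MT-ND1 shared with the siRNA was 6 bases, against a median of 7 in those windows. A match or its lack is a property of these letters and says nothing about binding.

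The target checked the labels. ADAMTS12 (ENSG00000151388) had 4083, 3449 and 3687 normalized counts in siADAMTS12 libraries 1, 2 and 3, against 13709, 12235 and 13423 in siCTL libraries 1, 2 and 3. That is a log2 fold change of -1.81 ± 0.07 (SE; limma, adjusted p = 4.81e-08). The normalized values summed to 30.7 to 31.4 M (1e6) per siADAMTS12 library and 33.6 to 34.1 M per siCTL library, a log2 difference of -0.12. These sums follow the authors' scaling, and the number of reads behind each library is not known from them. Scaling every library to the same sum would therefore raise log2 fold changes by about 0.12, slightly less in low rows, and it turned the 2424 rows called lower and 1798 called higher into 1546 and 3869. Of 10 stellate cell markers, 9 passed the filter on low values. Of these, 3 were called lower (33.3%), beside 15.5% of all rows tested, among them PDGFRB at a log2 fold change of -0.80. The log2 fold changes of the 9 ran from -2.90 to -0.11, with a median of -0.26. The summed marker value was 260563 to 277878 in siADAMTS12 libraries and 335675 to 375336 in siCTL libraries. The 6 hepatocyte markers summed to 22 to 28 in siADAMTS12 libraries and 17 to 19 in siCTL libraries, with 2 of them at 0 in every library. The 6 endothelial markers summed to 65 to 79 in siADAMTS12 libraries and 139 to 157 in siCTL libraries, with 2 at 0 in every library. Only 2 of them passed the filter, and 1 of these, KDR, was called lower. The 6 macrophage and leukocyte markers summed to 117 to 137 in siADAMTS12 libraries and 108 to 142 in siCTL libraries, and the 5 cholangiocyte markers to 1733 to 2071 in siADAMTS12 libraries and 1874 to 2232 in siCTL libraries. The part of these differences in the mitochondrial values was not tested.

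Throughout, levels are the authors' normalized counts, fold changes are siADAMTS12 over siCTL on the log2(value + 1) scale, and a row is called when limma's Benjamini-Hochberg adjusted p is under 0.05 over all 15637 rows with a mean of at least 10. Of the 37 mitochondrial rows, 23 passed that filter: all 13 mRNAs, both rRNAs and 8 of 22 tRNAs. MT-ND1 was the 1 row called lower and MT-RNR1 the 1 row called higher. Over the whole table, 15.5% of rows were called lower and 11.5% higher, 27% in all, so that 2 calls among 23 rows lie below the background. A wide spread within groups makes a call less likely, and the mRNAs had a wider spread than most rows, as given below. Its part in the low count was not tested. Groups did not overlap in 4 of the 23 rows, MT-ND1, MT-RNR1, MT-TE and MT-TT, beside 40.9% of all rows tested. The median log2 fold change of the 13 mRNAs was -0.16, beside 0.00 over all rows tested. Of those 13, 11 had a negative log2 fold change as deposited. That direction depended on the scaling: with quantile normalization, MT-CO1, MT-CO2, MT-CO3, MT-ATP8, MT-ND4, MT-ND5 and MT-CYB turned positive.

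**Figure D1:**
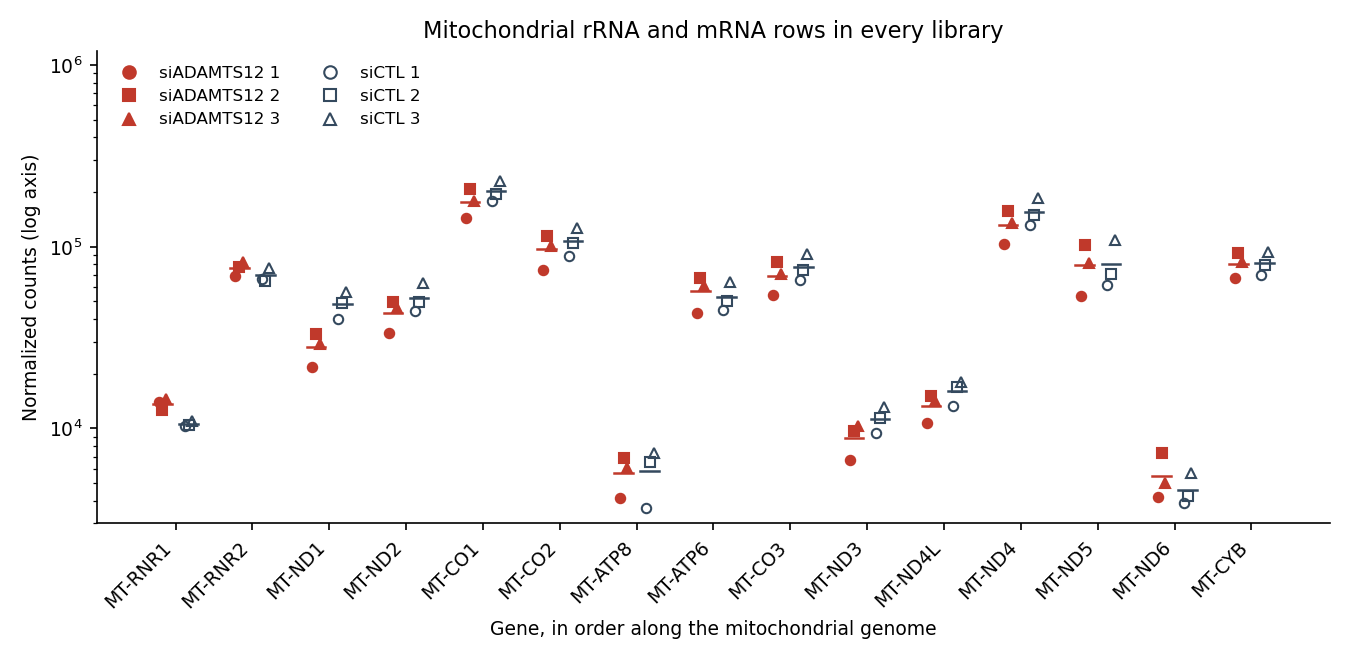
Normalized counts (log axis) of the 2 rRNA and 13 mRNA rows in each library, in genome order, with filled red symbols for siADAMTS12, open blue symbols for siCTL, symbol shape for the library number and a bar for each group's mean. MT-ND1 is the mRNA whose groups do not overlap, at 21754 to 32996 in siADAMTS12 libraries and 39845 to 56086 in siCTL libraries.

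The 13 mRNAs together summed to 620329, 945251 and 821245 in siADAMTS12 libraries 1, 2 and 3, against 756486, 862436 and 1063203 in siCTL libraries 1, 2 and 3. The groups overlapped, with a log2 difference of -0.18 (exact 2-sided permutation p = 0.5, where 3 against 3 can reach no less than 0.1). That difference moved with single libraries: it was -0.0068 without siADAMTS12 library 1, -0.31 without siADAMTS12 library 2, -0.29 without siCTL library 1 and -0.043 without siCTL library 3. All 37 rows made up 2.29, 3.30 and 3.00% of the library sum in siADAMTS12 libraries, against 2.48, 2.79 and 3.38% in siCTL libraries (exact 2-sided permutation p = 0.9). The mitochondrial share of the poly(A) RNA thus ranged as widely within each group as between them. In bulk RNA, fewer cells and less RNA per cell cannot be told apart, and the same holds for mitochondria per cell.

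The libraries of 1 group differed far more in these mRNAs than in most other transcripts. The highest siADAMTS12 library held 1.38 to 1.92 times the lowest, depending on the mRNA, and the highest siCTL library held 1.28 to 2.01 times the lowest. The median of that ratio was 1.11 in siADAMTS12 libraries and 1.11 in siCTL libraries over the 6486 rows with a mean of at least 1000. The mRNAs moved together in this: library 1 was the lowest of its group for all 13 mRNAs among siADAMTS12 libraries and for all 13 among siCTL libraries. The highest was siADAMTS12 library 2 for 12 of the 13 and siCTL library 3 for all 13. As a median over the 13 mRNAs, the log2 deviation from the group mean was -0.34, 0.26 and 0.09 in siADAMTS12 libraries 1, 2 and 3, against -0.23, -0.03 and 0.26 in siCTL libraries 1, 2 and 3.

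Over the whole table, the libraries numbered 1 deviated together (correlation 0.37). Numbers 2 and 3 gave 0.13 each, little above the 0.06 between number 2 of a group and number 3 of the other. Same-numbered ratios were also taken, though the pairing of numbers 2 and 3 is thus uncertain. For the mRNA sum, the log2 ratio of siADAMTS12 to siCTL was -0.29 for the libraries numbered 1, 0.13 for those numbered 2 and -0.37 for those numbered 3. Number 2 thus went against the other two. For 3 of the 13 mRNAs, MT-ND1, MT-ND3 and MT-ND4L, siADAMTS12 was lower in all 3 numbers, and for 0 it was higher in all 3. With the library number as a block in the fit, MT-ND2, MT-ND3 and MT-ND4L joined MT-ND1, for 4 mRNAs called lower, beside 19.6% of all rows called lower in that fit, and MT-RNR1 stayed the 1 row called higher, beside 15.5%.

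**Figure D2:**
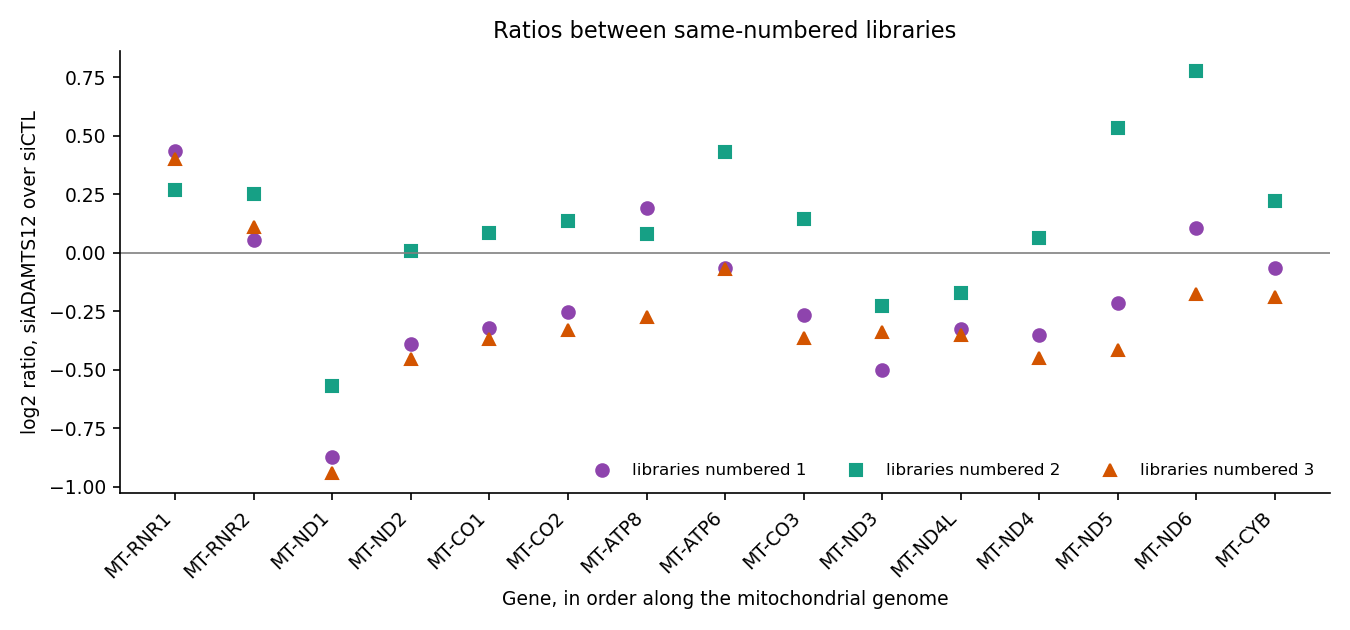
Log2 ratio of siADAMTS12 to siCTL between libraries of the same number, for the 2 rRNA and 13 mRNA rows, with shape and colour for the number and a grey line at 0. MT-ND1 lies between -0.94 and -0.57 and MT-RNR1 between 0.27 and 0.44, while for most mRNAs number 2 lies above 0 and numbers 1 and 3 below it.

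To set the mRNAs against each other without these swings, each mRNA was also expressed as a share of the 13-mRNA sum in its own library. All MT- rows were also refitted after scaling to the same mRNA sum in each library. This scaling was added after the swings had been seen. It subtracts the log2 difference of the mRNA sum, -0.18, from the log2 fold change of every MT- row, slightly less in low rows. That difference had itself not separated the groups (exact 2-sided permutation p = 0.5). MT-RNR1 did not follow the swings among siADAMTS12 libraries, being lowest in library 2, where the mRNA sum was highest. Among siCTL libraries it had the order of the mRNA sum, but its highest was only 1.06 times its lowest. That ratio was 1.28 to 2.01 for the mRNAs. Scaling raised the SE of MT-RNR1 from 0.07 to 0.16. In that fit, 4 mitochondrial rows were called higher, beside 11.5% of all rows: MT-RNR1, MT-ATP6, MT-ND6 and the tRNA row MT-TS1. The 1 row called lower was MT-ND1, beside 15.5% of all rows. All rows other than the MT- rows stayed as deposited in that fit. Neither percentage is therefore a like background for the scaled rows. A share falls when another member rises, so it shows unequal change and not which member moved.

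**Figure D3:**
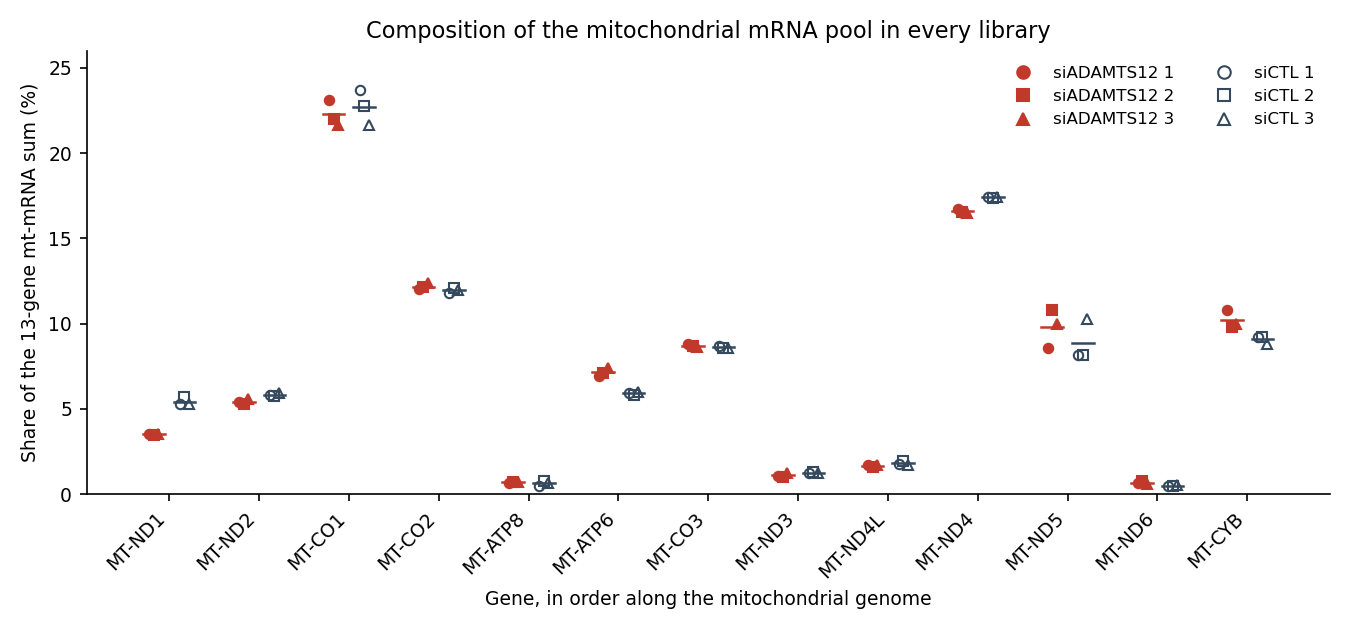
Share (%) of the 13-mRNA sum taken by each mRNA in each library, with filled red symbols for siADAMTS12, open blue symbols for siCTL and a bar for each group's mean. The MT-ND1 share is 3.49 to 3.56% in siADAMTS12 libraries and 5.27 to 5.68% in siCTL libraries, and the MT-ATP6 share is 6.92 to 7.40% in siADAMTS12 libraries and 5.80 to 6.002% in siCTL libraries.

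The rRNA genes lie ahead of the mRNA genes on the heavy-strand precursor, and 1 of the 2 rRNA rows was called. MT-RNR1 (ENSG00000211459), the rRNA of the small mitoribosome subunit, lies at chrM:648-1601 on the plus strand of GRCh38. It had 13942, 12583 and 14425 normalized counts in siADAMTS12 libraries 1, 2 and 3, against 10300, 10446 and 10928 in siCTL libraries 1, 2 and 3. Every siADAMTS12 library was above every siCTL library. MT-RNR1 rose, at a log2 fold change of 0.37 ± 0.07 (SE; limma, adjusted p = 0.00181), to 129% of siCTL. Scaled to the mRNA sum, the log2 fold change was 0.54 ± 0.16 (limma, adjusted p = 0.0247).

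MT-RNR2 (ENSG00000210082), the rRNA of the large subunit, follows at chrM:1671-3229 after the gene of the valine tRNA. It had 69391, 77598 and 82822 normalized counts in siADAMTS12 libraries 1, 2 and 3, against 66798, 65187 and 76699 in siCTL libraries 1, 2 and 3. The groups overlapped, and the log2 fold change of 0.14 ± 0.09 did not pass (limma, adjusted p = 0.302). It passed with quantile normalization (log2 fold change 0.33, adjusted p = 0.0134) and with the same total in each library (0.26, adjusted p = 0.0427). With the mRNA sum equalized its log2 fold change was 0.31, with an adjusted p of 0.0613 without the block and 0.00609 with it. MT-RNR1 as a percent of MT-RNR2 was 20.1, 16.2 and 17.4% in siADAMTS12 libraries, against 15.4, 16.02 and 14.2% in siCTL libraries. These did not overlap, although siADAMTS12 library 2 and siCTL library 2 lay close together (exact 2-sided permutation p = 0.1, the floor of this design). Both rRNAs are the product of the same precursor, so the ratio compares what was recovered of each after processing and poly(A) selection. The 2 rRNA rows together summed to 83333, 90181 and 97247 in siADAMTS12 libraries and 77098, 75633 and 87627 in siCTL libraries (log2 difference 0.17, exact 2-sided permutation p = 0.2).

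MT-ND1 had the clearest difference of the 13 mRNAs. MT-ND1 (ENSG00000198888) encodes a membrane subunit of complex I, the NADH dehydrogenase that feeds electrons into the chain, at the site where the quinone enters. Its gene lies at chrM:3307-4262 on the plus strand, behind MT-RNR2 and the first leucine tRNA and directly before the isoleucine tRNA. It had 21754, 32996 and 29208 normalized counts in siADAMTS12 libraries 1, 2 and 3, against 39845, 48983 and 56086 in siCTL libraries 1, 2 and 3. The highest siADAMTS12 library stayed below the lowest siCTL library. MT-ND1 fell, at a log2 fold change of -0.79 ± 0.15 (SE; limma, adjusted p = 0.00244), to 57.6% of siCTL. Between same-numbered libraries the log2 ratio was -0.87, -0.57 and -0.94. The call held in each of the 18 other settings run, at adjusted p-values up to 0.0361.

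As a share of the mRNA sum, MT-ND1 took 3.51, 3.49 and 3.56% in siADAMTS12 libraries 1, 2 and 3, against 5.27, 5.68 and 5.28% in siCTL libraries 1, 2 and 3. The share varied little within each group. The log2 difference in share was -0.62 (exact 2-sided permutation p = 0.1, the floor of this design). MT-ND2 lies next to MT-ND1 on the same precursor, past 3 tRNA genes. MT-ND1 as a percent of MT-ND2 was 64.8, 66.1 and 63.6% in siADAMTS12 libraries, against 90.5, 98.5 and 89.3% in siCTL libraries. Per kilobase of gene, MT-ND1 averaged 29274 ± 5983 normalized counts in siADAMTS12 libraries and 50528 ± 8516 in siCTL libraries. MT-ND2 averaged 41397 ± 8189 per kilobase in siADAMTS12 libraries and 50079 ± 9252 in siCTL libraries (SD, n = 3 each). The neighbours thus stood at nearly the same level per length in siCTL cells and apart in siADAMTS12 cells. Of their 50-base windows, 22.1% in MT-ND1 and 43.6% in MT-ND2 recur in other transcripts. The treatment of such reads is not known, so levels of the 2 genes may not be counted alike.

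The other 6 complex I mRNAs did not pass the test as deposited. MT-ND2 (ENSG00000198763, chrM:4470-5511), a membrane subunit of the proton-pumping arm, had 33561, 49938 and 45907 normalized counts in siADAMTS12 libraries, against 44017, 49711 and 62818 in siCTL libraries. Its log2 fold change was -0.28 ± 0.15 (limma, adjusted p = 0.203), and 0.028 with the library number as a block. Its share of the mRNA sum was 5.41, 5.28 and 5.59% in siADAMTS12 libraries, all below the 5.82, 5.76 and 5.91% of siCTL libraries.

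MT-ND3 (ENSG00000198840, chrM:10059-10404) is the small membrane subunit whose loop lies by the quinone site. It had 6665, 9699 and 10345 normalized counts in siADAMTS12 libraries, against 9418, 11345 and 13088 in siCTL libraries. The groups overlapped, and the log2 fold change was -0.35 ± 0.15 (limma, adjusted p = 0.112), with an adjusted p of 0.0014 under the block. MT-ND4L and MT-ND4 are translated from 1 mRNA with overlapping frames, and both are membrane subunits. The 7 bases their genes share are in capitals at the end of MT-ND4L, because the counts of this pair come partly from the same molecules.
MT-ND4L end shared with MT-ND4: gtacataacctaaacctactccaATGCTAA
MT-ND4L (ENSG00000212907, chrM:10470-10766) had 10642, 15041 and 14176 normalized counts in siADAMTS12 libraries, against 13317, 16964 and 18102 in siCTL libraries. Its log2 fold change was -0.28 ± 0.13 (limma, adjusted p = 0.144), with an adjusted p of 0.00256 under the block. MT-ND4 (ENSG00000198886, chrM:10760-12137) had 103561, 156428 and 135521 in siADAMTS12 libraries, against 131978, 149843 and 185226 in siCTL libraries. Its log2 fold change was -0.25 ± 0.16 (limma, adjusted p = 0.275), and it did not pass under the block either (adjusted p = 0.064). Its share of the mRNA sum was 16.5 to 16.7% in siADAMTS12 libraries and 17.4% in each siCTL library, a small difference with no overlap.

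MT-ND5 (ENSG00000198786, chrM:12337-14148), the largest membrane subunit, was the mRNA that varied most between the siADAMTS12 libraries. It had 53237, 102280 and 81814 normalized counts in siADAMTS12 libraries, against 61788, 70608 and 108975 in siCTL libraries (log2 fold change -0.03 ± 0.23; limma, adjusted p = 0.945). MT-ND6 (ENSG00000198695, chrM:14149-14673, minus strand) is the 1 mRNA transcribed from the light strand. It had 4171, 7286 and 5028 in siADAMTS12 libraries, against 3877, 4252 and 5683 in siCTL libraries. The groups overlapped as deposited (log2 fold change 0.24 ± 0.18; limma, adjusted p = 0.371). Its share of the mRNA sum was 0.672, 0.771 and 0.612% in siADAMTS12 libraries, above the 0.513, 0.493 and 0.535% of siCTL libraries, and MT-ND6 passed with the mRNA sum equalized (log2 fold change 0.41 ± 0.08; limma, adjusted p = 0.00306).

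The 7 complex I mRNAs summed to 233591, 373668 and 321999 in siADAMTS12 libraries, against 304240, 351706 and 449978 in siCTL libraries (log2 difference -0.26, exact 2-sided permutation p = 0.5). MT-CYB (ENSG00000198727, chrM:14747-15887) encodes cytochrome b, the mitochondrially encoded subunit of complex III. It had 66886, 92610 and 82199 normalized counts in siADAMTS12 libraries, against 69886, 79445 and 93632 in siCTL libraries (log2 fold change -0.01 ± 0.13; limma, adjusted p = 0.97). Its share of the mRNA sum was 10.8, 9.80 and 10.0% in siADAMTS12 libraries, above the 9.24, 9.21 and 8.81% of siCTL libraries. With the mRNA sum equalized, its adjusted p was 0.102 without the block and 0.0274 with it.

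The 3 complex IV mRNAs kept nearly the same proportions in both groups. MT-CO1 (ENSG00000198804, chrM:5904-7445), the catalytic subunit of cytochrome c oxidase, was the most abundant row. It had 143481, 208100 and 177930 normalized counts in siADAMTS12 libraries, against 179177, 196327 and 229946 in siCTL libraries (log2 fold change -0.20 ± 0.14; limma, adjusted p = 0.318). MT-CO2 (ENSG00000198712, chrM:7586-8269), the subunit that takes electrons from cytochrome c, had 74736, 114673 and 101493 in siADAMTS12 libraries, against 89141, 104306 and 127426 in siCTL libraries (-0.15 ± 0.16; adjusted p = 0.537). MT-CO3 (ENSG00000198938, chrM:9207-9990), a structural subunit, had 54556, 81941 and 70814 in siADAMTS12 libraries, against 65547, 74095 and 91120 in siCTL libraries (-0.16 ± 0.15; adjusted p = 0.467). Their shares of the mRNA sum differed little: MT-CO3 took 8.62 to 8.79% in siADAMTS12 libraries and 8.57 to 8.66% in siCTL libraries.

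The pair of ATP synthase genes overlaps on a single mRNA. Capitals mark the start codon of MT-ATP6 and the stop codon of MT-ATP8 in the 46 bases both genes hold, chrM:8527-8572 on GRCh38. A read over this stretch overlaps both genes. How the counting assigned such reads, to both, to 1 or to neither, is not given in the sources used here.
MT-ATP8 and MT-ATP6 overlap: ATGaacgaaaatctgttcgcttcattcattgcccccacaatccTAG
MT-ATP6 (ENSG00000198899, chrM:8527-9207), the membrane subunit that forms the proton path, had 42945, 67396 and 60787 normalized counts in siADAMTS12 libraries, against 44872, 50060 and 63814 in siCTL libraries (log2 fold change 0.10 ± 0.16; limma, adjusted p = 0.703). Its share of the mRNA sum was 6.92, 7.13 and 7.40% in siADAMTS12 libraries, above the 5.93, 5.80 and 6.002% of siCTL libraries. With the mRNA sum equalized, MT-ATP6 passed at a log2 fold change of 0.27 ± 0.06 (limma, adjusted p = 0.00761). MT-ATP8 (ENSG00000228253, chrM:8366-8572), a small subunit of the same membrane part, had 4134, 6863 and 6023 in siADAMTS12 libraries, against 3623, 6497 and 7287 in siCTL libraries (-0.00 ± 0.23; adjusted p = 0.997). Its share of 0.666 to 0.733% in siADAMTS12 libraries lay within the 0.479 to 0.753% of siCTL libraries.

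Across the 13 shares, 3 were higher in every siADAMTS12 library than in any siCTL library (MT-ATP6, MT-ND6 and MT-CYB) and 3 were lower (MT-ND1, MT-ND2 and MT-ND4). As deposited, groups did not overlap in 1 of the 13 mRNAs, beside 40.9% of all rows tested. The shares have the swings of the mRNA sum removed and add up to a whole in each library. That 40.9% is therefore no like background for them. MT-ND1 differed by the largest log2 difference in share of the 13, -0.62, followed by MT-ND6 at 0.41 and MT-ATP6 at 0.27.

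**Figure D4:**
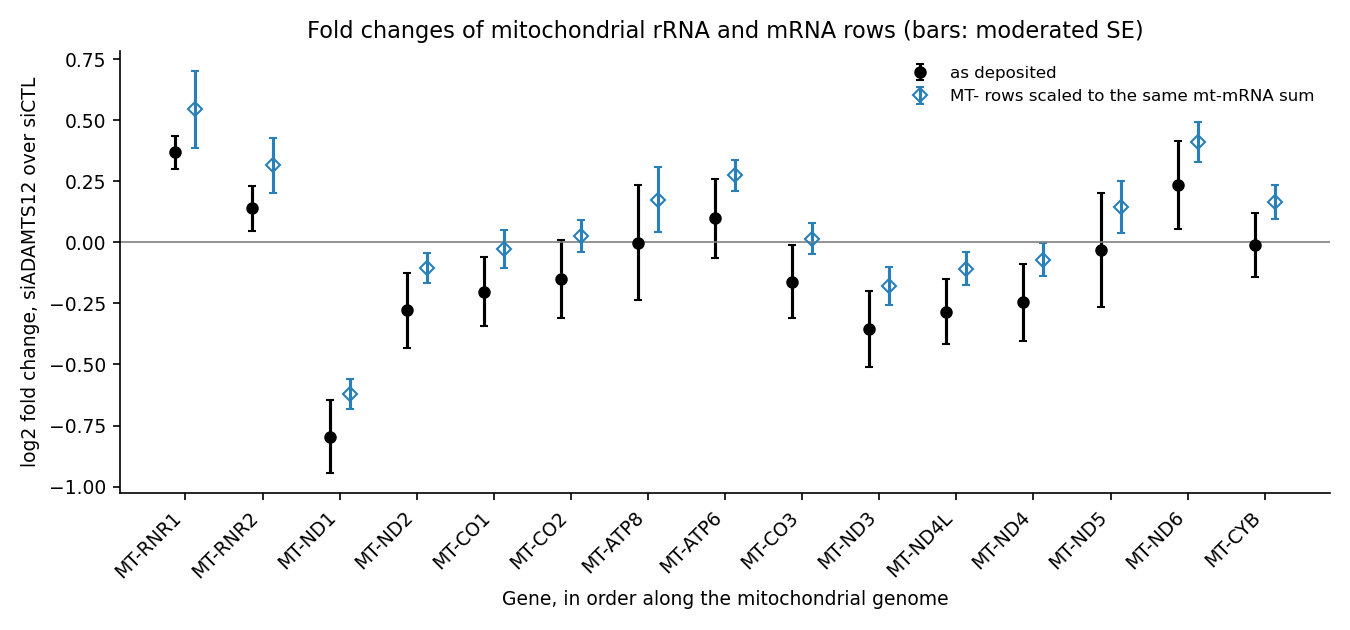
Log2 fold changes (siADAMTS12 over siCTL, ± SE from limma) of the rRNA and mRNA rows as deposited (black circles) and with all MT- rows scaled to the same mRNA sum in each library (open blue diamonds). MT-ND1 lies at -0.79 as deposited and -0.62 after scaling, and MT-RNR1 at 0.37 and 0.54.

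The ends of these mRNAs show how closely the genes are packed. Of 13 mRNAs, 6 end on an incomplete stop codon that the poly(A) tail has to complete, and MT-ND1 is the one of these that ends on TA. The last 30 bases of MT-ND1, MT-ND2, MT-CO1 and MT-ND6 are shown with the last codon, whole or in part, in capitals (GENCODE 29 transcripts, GRCh38) as examples of incomplete ends and of the ends AGA and AGG.
MT-ND1 last 30 bases: tacaatctccagcattccccctcaaaccTA
MT-ND2 last 30 bases: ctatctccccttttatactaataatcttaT
MT-CO1 last 30 bases: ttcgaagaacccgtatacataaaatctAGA
MT-ND6 last 30 bases: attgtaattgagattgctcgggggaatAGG
MT-ND2, MT-ND3, MT-ND4, MT-CO3 and MT-CYB end on a single T of the stop codon. Within the 6 with incomplete stop codons the log2 fold changes ran between -0.79 for MT-ND1 and -0.01 for MT-CYB. Within the 7 that end on a whole codon they ran between -0.28 for MT-ND4L and 0.24 for MT-ND6. A link between the ends and the fold changes was not tested.

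The 22 tRNAs are shorter than the usual fragment of such a library, and most of their rows were near empty. They summed to 358, 434 and 389 normalized counts in siADAMTS12 libraries and 389, 349 and 376 in siCTL libraries (log2 difference 0.08, exact 2-sided permutation p = 0.5). Of the 22 rows, 9 were at 0 in every library and 5 more stayed below the filter. Of the 8 that passed, 6 were among the 8 tRNA genes transcribed from the light strand and 2 among the 14 from the heavy strand. The light-strand rows summed to 341, 401 and 345 in siADAMTS12 libraries and 361, 308 and 326 in siCTL libraries. The heavy-strand rows summed to 17, 33 and 44 in siADAMTS12 libraries and 28, 41 and 50 in siCTL libraries. In every library the 8 light-strand rows together held more than the 14 heavy-strand rows. None of the 8 tRNA rows that passed the filter was called by limma, and 2 had an unadjusted p under 0.05, MT-TS1 and MT-TT.

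The 3 fullest tRNA rows were MT-TQ (glutamine), MT-TP (proline) and MT-TS1 (serine, UCN codons), all on the light strand. Each lies far from the nearest gene on its own strand, by 1186, 1213 and 1554 bases. Their genes are shown, with that of the isoleucine tRNA MT-TI, whose last 3 bases are the reverse complement of the last 3 of MT-TQ; capitals mark those shared bases.
MT-TQ gene: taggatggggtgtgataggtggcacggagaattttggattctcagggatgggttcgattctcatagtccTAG
MT-TI gene: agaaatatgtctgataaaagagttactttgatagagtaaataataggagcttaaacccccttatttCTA
MT-TP gene: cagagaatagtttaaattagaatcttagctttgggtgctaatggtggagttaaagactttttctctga
MT-TS1 gene: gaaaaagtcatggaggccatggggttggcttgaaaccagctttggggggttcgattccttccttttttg
MT-TQ (chrM:4329-4400) had 135, 176 and 118 normalized counts in siADAMTS12 libraries, against 157, 127 and 142 in siCTL libraries (log2 fold change -0.00 ± 0.16; limma, adjusted p = 0.988). MT-TP (chrM:15956-16023) had 118, 112 and 94 in siADAMTS12 libraries, against 115, 95 and 83 in siCTL libraries (0.15 ± 0.17; adjusted p = 0.549). MT-TS1 (chrM:7446-7514), whose end abuts that of MT-CO1 on the other strand, had 49, 86 and 90 in siADAMTS12 libraries, against 46, 45 and 56 in siCTL libraries. It did not pass as deposited (0.56 ± 0.24; adjusted p = 0.107) and passed with the mRNA sum equalized (0.73 ± 0.18; adjusted p = 0.0124). It also passed with the same total in each library (adjusted p = 0.0479) and without siADAMTS12 library 1 (adjusted p = 0.0124).

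**Figure D5:**
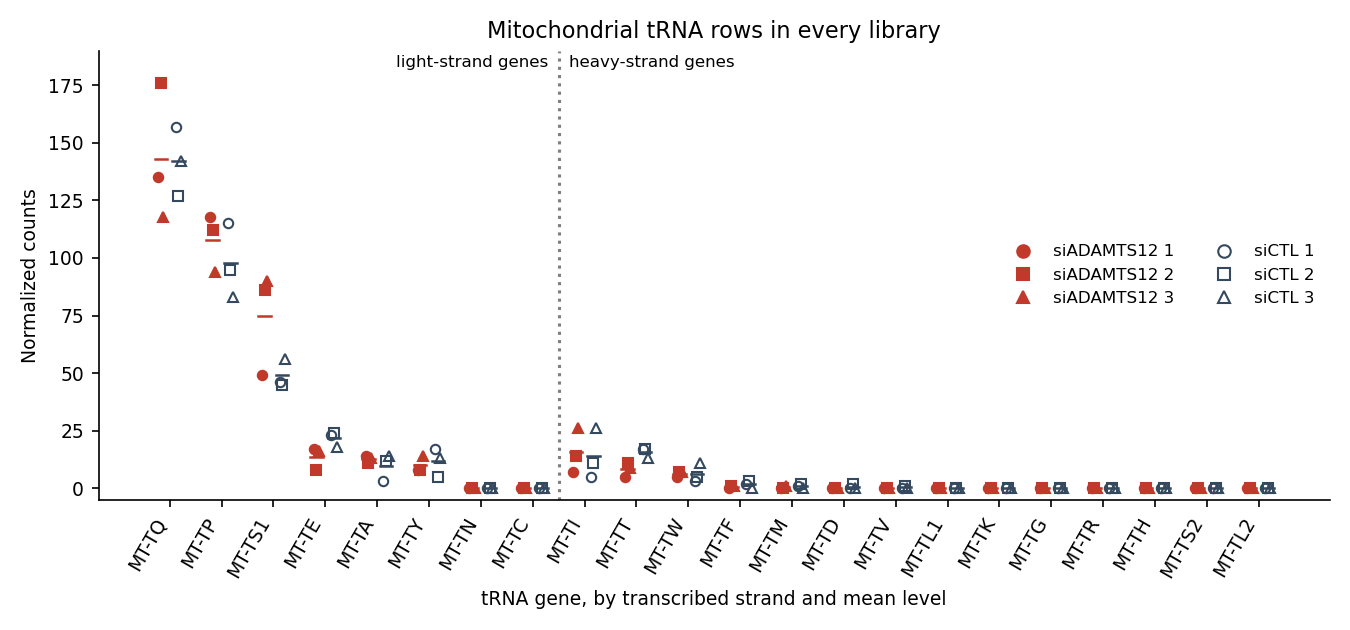
Normalized counts (linear axis) of the 22 tRNA rows in each library, light-strand genes left of the dotted line and heavy-strand genes right of it, with filled red symbols for siADAMTS12, open blue symbols for siCTL and bars for group means. MT-TQ, MT-TP and MT-TS1 stand above all others, with 45 to 176 counts, and 9 rows lie at 0 in every library.

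The other tRNA rows that passed the filter held 3 to 26 counts. MT-TE (glutamate), next to MT-ND6 on the light strand, had 17, 8 and 16 in siADAMTS12 libraries, against 23, 24 and 18 in siCTL libraries. MT-TT (threonine), next to MT-CYB on the heavy strand, had 5, 11 and 9 in siADAMTS12 libraries, against 17, 17 and 13 in siCTL libraries. Neither pair of groups overlapped, and neither passed (log2 fold changes -0.68 ± 0.34 and -0.89 ± 0.37; limma, adjusted p = 0.163 and 0.103). MT-TI, MT-TA (alanine) and MT-TY (tyrosine) had overlapping groups at adjusted p-values of 0.437 to 0.899. Whether these reads were free tRNAs or precursor pieces was not tested, and the strand setting of the counting is not given in the sources used here.

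Nuclear copies of mitochondrial DNA can take or lose reads of the mitochondrial genes. The table holds 408 rows named as such copies, and 10 of them passed the filter. None of these was called by limma, and 0 had an unadjusted p under 0.05. MTATP6P1 (chromosome 1, 633696 to 634376), a full copy of MT-ATP6 with 98.5% identity over 681 bases, had 6023, 8836 and 7127 normalized counts in siADAMTS12 libraries, against 6009, 7094 and 8207 in siCTL libraries. That is 11.7 to 14.2% of the MT-ATP6 value over the 6 libraries. MTND2P28 (chromosome 1, 629640 to 630683) had 695, 1359 and 1196 in siADAMTS12 libraries, against 1018, 1457 and 1715 in siCTL libraries, 2.07 to 2.93% of MT-ND2. It was called lower under the block, like MT-ND2. MTCO2P12 (chromosome 1, 632757 to 633438) had 25, 82 and 96 in siADAMTS12 libraries and 45, 83 and 79 in siCTL libraries.

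MTCO1P12 (chromosome 1, 631074 to 632616), a copy of MT-CO1 with 98.6% identity, ordered the libraries of a group unlike its parent. It had 866, 199 and 243 normalized counts in siADAMTS12 libraries, against 917, 294 and 239 in siCTL libraries. In both groups library 1 held the most of this copy and the least MT-CO1. Between groups the log2 fold changes were alike and not called, -0.21 for the copy and -0.20 for MT-CO1. The matching 60 bases of the gene (chrM:6207-6266) and the copy (chr1:631377-631436, both plus strand, GRCh38) differ at the 3 bases in capitals. This stretch was picked because no other 60 aligned bases without a gap differ at more. The whole alignment has 20 mismatches over 1543 bases, so little separates their reads.
MT-CO1 stretch: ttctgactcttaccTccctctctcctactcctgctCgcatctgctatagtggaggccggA
MTCO1P12 stretch: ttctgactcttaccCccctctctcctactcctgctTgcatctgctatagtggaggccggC

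The members differ in how much of their sequence recurs elsewhere in the GENCODE transcripts. Of all 50-base windows, an exact second copy existed for 22.1% in MT-ND1, 43.6% in MT-ND2, 49.5% in MT-CO1, 46.7% in MT-ATP6, 14.04% in MT-RNR2 and 0% in MT-RNR1. For 100-base windows it was 10.97% in MT-ND1, 26.1% in MT-ND2, 27.9% in MT-CO1 and 11.9% in MT-ATP6, and 7 of the 13 mRNAs had none. Adding the copies' counts to their parents left the same number of rows called, 1 lower and 1 higher. How reads with several matches were treated is not given in the sources used here, and its part in the levels was not tested.

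The nuclear genes that serve mitochondrial RNA and its translation were described by lists. Of 293 listed genes that passed the filter, 38 were lower and 26 higher, 12.97% and 8.87%, beside 15.5% and 11.5% of all rows, and their median log2 fold change was 0.01. Transcription of the mitochondrial genome had 9 genes, with 0 lower and 2 higher (22.2%). The 2 were the termination factor family members MTERF1 (log2 fold change 0.31 ± 0.07; limma, adjusted p = 0.00848) and MTERF4 (0.28 ± 0.07; adjusted p = 0.0141). Among those not called, the RNA polymerase POLRMT averaged 1637 ± 212 normalized counts in siADAMTS12 libraries and 1401 ± 141 in siCTL libraries. The packaging and transcription factor TFAM averaged 1891 ± 123 in siADAMTS12 libraries and 1937 ± 102 in siCTL libraries (SD, n = 3 each). Of 8 regulators of mitochondrial biogenesis, 0 were called by limma, and 1 had an unadjusted p under 0.05. Of 16 genes of DNA replication and nucleotide supply, 2 were lower and 2 higher (12.5% each). Among these were the topoisomerase TOP3A (0.35 ± 0.08; adjusted p = 0.00727) and the nuclease MGME1 (-0.25 ± 0.07; adjusted p = 0.0178).

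Of 7 genes of RNA stability, tailing and decay, 3 were lower and 1 higher, 42.9% and 14.3%, beside 15.5% and 11.5% of all rows. LRPPRC, which binds and stabilizes most mitochondrial mRNAs, had 2532, 2268 and 2303 normalized counts in siADAMTS12 libraries, against 5812, 5221 and 5041 in siCTL libraries. The groups stood far apart, and LRPPRC fell, at a log2 fold change of -1.18 ± 0.07 (limma, adjusted p = 5.76e-07). Its partner SLIRP was not called (0.10 ± 0.10; adjusted p = 0.524). PDE12, a nuclease that removes poly(A) in mitochondria, fell (-0.57 ± 0.06; adjusted p = 6.07e-05), and so did the oligonucleotide exonuclease REXO2 (-0.56 ± 0.10; adjusted p = 0.00235). The mitochondrial poly(A) polymerase MTPAP rose (0.34 ± 0.07; adjusted p = 0.00508).

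Among 24 genes of RNA base modification, 4 were lower and 5 higher, 16.7% and 20.8%, beside 15.5% and 11.5% of all rows. TFB1M, the methyltransferase that modifies a pair of adenines near the end of the MT-RNR1 product, had 454, 474 and 453 normalized counts in siADAMTS12 libraries, against 189, 157 and 178 in siCTL libraries. It rose, at a log2 fold change of 1.40 ± 0.10 (limma, adjusted p = 2.58e-06), so it moved with the same sign as MT-RNR1, and whether they are linked was not tested. NSUN2, an RNA cytosine methyltransferase, fell (-0.63 ± 0.06; adjusted p = 1.28e-05). GTPBP3, which modifies tRNA anticodons, rose (0.35 ± 0.07; adjusted p = 0.00437). Of 14 genes of RNA cleavage and tRNA ends, 2 were lower (14.3%) and 1 higher (7.14%). These were PTCD2 (-0.36 ± 0.09; adjusted p = 0.0111), GRSF1, an RNA granule protein (-0.28 ± 0.07; adjusted p = 0.0116), and FASTKD1 (0.41 ± 0.10; adjusted p = 0.0116).

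Of 77 mitoribosome proteins, 15 were lower and 4 higher, 19.5% and 5.19%, beside 15.5% and 11.5% of all rows. MRPS5, a protein of the small subunit, had 1149, 1291 and 1251 normalized counts in siADAMTS12 libraries, against 2791, 3131 and 3154 in siCTL libraries, and fell (log2 fold change -1.30 ± 0.07; limma, adjusted p = 3.21e-07). MRPL51, of the large subunit, fell (-0.69 ± 0.07; adjusted p = 1.84e-05) and MRPS18B, of the small one, fell (-0.62 ± 0.08; adjusted p = 0.000158). The median over the 77 was -0.04. Of 15 mitochondrial aminoacyl-tRNA synthetases, 3 were lower and 3 higher, 20% each. The leucine enzyme LARS2 had 1015, 1099 and 987 in siADAMTS12 libraries, against 2221, 2232 and 2074 in siCTL libraries (-1.07 ± 0.07; adjusted p = 8.45e-07). The glutamate enzyme EARS2 (-0.24 ± 0.07; adjusted p = 0.0194) and the phenylalanine enzyme FARS2 (0.37 ± 0.11; adjusted p = 0.0319) changed in opposite directions. Of 14 translation factors, 4 were lower (28.6%) and 3 higher (21.4%), among them the ribosome recycling factor MRRF (-0.47 ± 0.08; adjusted p = 0.00126).

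Of the 73 nuclear subunits of these 4 complexes that passed the filter, 8 were called, or 10.96%, beside 27% of all rows. Of 37 complex I subunits, 3 were lower and 2 higher, with a median log2 fold change of 0.03. NDUFB10 fell (log2 fold change -1.03 ± 0.10; limma, adjusted p = 2.24e-05) and so did NDUFB9 (-0.55 ± 0.07; adjusted p = 0.000234), both accessory subunits of the distal membrane arm, in which MT-ND5 also lies. NDUFA1, an accessory subunit of the arm's proximal part, rose (0.63 ± 0.08; adjusted p = 0.000166). Of 9 complex III subunits, UQCRH was the 1 called, lower in siADAMTS12 (-0.18 ± 0.06; adjusted p = 0.0387). Of 11 complex IV subunits, COX4I1 was the 1 called, higher in siADAMTS12 (0.27 ± 0.06; adjusted p = 0.0038). Of 16 ATP synthase subunits, ATP5MC1 was the 1 called, higher in siADAMTS12 (0.25 ± 0.06; adjusted p = 0.0101). Of 17 complex I assembly factors, TMEM126B was the 1 called, higher in siADAMTS12 (0.33 ± 0.07; adjusted p = 0.00384), and of 20 complex IV assembly factors COA4 was the 1 called, lower in siADAMTS12 (-0.48 ± 0.07; adjusted p = 0.000332).

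Some of these nuclear calls were close to the threshold. The calls of UQCRH and GRSF1 ended with quantile normalization (limma, adjusted p = 0.206 and 0.0728). When 1 library was left out, the highest adjusted p was 0.0549 for MTERF4, 0.0727 for MGME1, 0.0524 for PTCD2, 0.0841 for EARS2, 0.121 for FARS2 and 0.149 for UQCRH, and it stayed under 0.05 for the other genes named here as called.

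The guide's seed match GAGGGAA was also counted in the 3′ untranslated regions of these nuclear genes. It was present in 8 of the 38 listed genes called lower, among them LRPPRC, PDE12, LARS2, MRPS5 and PTCD2, and in 2 of the 26 called higher, MTERF4 and NDUFS1. Over the whole table, 15.7% of 12731 genes searched held it, with 30.9% of those called lower and 10.96% of those called higher. The part of the siRNA's seed in these changes was not tested.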

How the data were processed

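Poly(A) RNA of 6 LX-2 libraries was sequenced. The authors' deposited table holds normalized counts, a score here because the values are whole numbers after scaling. Per the submitters' processing notes, STAR, HTSeq and DESeq2 were used with GRCh38 (versions not given). The sources used here give neither the strand setting nor the annotation. The columns were used as deposited, with no count model. Rows with a mean of at least 10 (15637 of 60669) were fitted as log2(value + 1), which understates folds of low rows, with limma 3.58.1 (lmFit, eBayes with trend) in R 4.3.3, and p-values were adjusted by Benjamini-Hochberg over all rows kept. The fit was tested on simulated data. Sums, shares and ratios had exact 2-sided permutation tests over libraries. Python 3.11.15, numpy 2.4.6, pandas 2.3.3, scipy 1.17.1, matplotlib 3.10.9 and blastn 2.17.0 were used, with GENCODE 29 for positions and sequences.

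Deviations from group means correlated at 0.37, 0.13 and 0.13 across rows for same-numbered libraries and at -0.19 to 0.06 for others. All same-number values exceeded 0.1, the threshold set for pairing, so a fit with the number as a block stands beside the main one. Deviations from a group's own mean cancel out in each row, so these correlations depend on each other. The 0.37 for number 1 raises the values among numbers 2 and 3, so 0.13 is no separate evidence of pairs. Between number 2 of a group and number 3 of the other the correlation was 0.06, and the pairing of these numbers stays uncertain. The labels state no shared source for a number.

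The members, lists and tests were chosen with earlier results of these data known. Named genes were all MT- rows, ADAMTS12, nuclear copies with a mean of at least 50, and up to 3 members of each list with the smallest adjusted p among those past 0.05; SLIRP, POLRMT, TFAM and PDGFRB were added for their roles. Alternatives were the block, pseudocounts of 8 and 0.5, no filter, a minimum mean of 50, quantile normalization, the same total per library, no trend, copies added to parents, each library left out, and, added after seeing the data, MT- rows scaled to the same mRNA sum and number 1 left out of both groups.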

Additional observations from a re-analysis of the deposited data

How the results depend on the processing

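MT-ND1 stayed called lower and MT-RNR1 called higher in all 18 other settings, MT-ND1 at log2 fold changes of -0.93 to -0.55 and MT-RNR1 at 0.33 to 0.54. The count of mitochondrial rows called lower, 1 as reported, was 4 with the replicate block and 1 to 3 when 1 library was left out, the 3 being without siCTL library 1. The count called higher, 1 as reported, was 2 with quantile normalization, 3 with the same total in each library, 4 with MT- rows scaled to the same mRNA sum, 6 with that scaling and the block, 2 without number 1 in both groups, and 1 to 2 when 1 library was left out (2 without siADAMTS12 library 1). The same total moved the counts over all rows to 1546 lower and 3869 higher. Called nuclear list genes outside the mitoribosome, 45 as reported, were 29 to 43 when 1 library was left out, with 29 without siADAMTS12 library 3. Called nuclear copies, 0 as reported, were 1 with the block and 0 to 1 when 1 library was left out (1 without siADAMTS12 library 1). Added to the values as deposited, the block changed the calls of MT-ND2, MT-ND3 and MT-ND4L and of no other mitochondrial row; added to the rows scaled to the same mRNA sum, it changed those of MT-RNR2 and MT-CYB. The cause of these moves was not tested.

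Some log2 fold changes of rows not called changed sign. With MT- rows scaled to the same mRNA sum, and equally with the block added, they were 0.17 for MT-TQ, 0.054 for MT-TY, 0.027 for MT-CO2, 0.17 for MT-ATP8, 0.014 for MT-CO3, 0.14 for MT-ND5 and 0.17 for MT-CYB. With the same total they were 0.12 for MT-TQ, 0.0075 for MT-TY, 0.12 for MT-ATP8, 0.093 for MT-ND5 and 0.11 for MT-CYB. With quantile normalization they were 0.052 for MT-CO1, 0.093 for MT-CO2, 0.11 for MT-ATP8, 0.062 for MT-CO3, 0.11 for MT-ND4, 0.17 for MT-ND5 and 0.13 for MT-CYB. Without number 1 in both groups they were 0.10 for MT-TQ, -0.11 for MT-TA, 0.34 for MT-TY, 0.061 for MT-ND5 and 0.017 for MT-CYB. With 1 library left out, the ranges that crossed 0 were -0.28 to 0.80 for MT-TI, -0.16 to 0.12 for MT-TQ, -0.037 to 0.92 for MT-TA, -0.57 to 0.038 for MT-TY, -0.28 to 0.028 for MT-CO2, -0.31 to 0.21 for MT-ATP8, -0.035 to 0.29 for MT-ATP6, -0.24 to 0.23 for MT-ND5 and -0.12 to 0.12 for MT-CYB. The number of reads is unknown, so no counting interval is given, and tRNA rows near 10 counts allow no firm direction.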
